A study of Mus musculus with 22 samples.

Results

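The 36 genes described here are interferon-response genes of the mouse, taken by gene symbol from 55141 genes in the deposited tables, and all 36 were found. They were measured by RNA-seq of polyadenylated RNA in 22 libraries that fall into 10 groups. Levels are given in CPM, a gene's counted reads divided by all counted reads of its library and scaled to a total of 1 M (mega) reads. The gene list was drawn up with the CPM of these same libraries in view, so the levels below, and the calls made on them, are a description of the members and not evidence that the list moves. Wild-type mouse embryonic stem (mES) cells and cells labelled Hox-/-, whose libraries carry the name BADC and which lack all Hox function by the title of the series, were compared in 3 kinds of culture. The undifferentiated mES cells grew with serum, LIF at 100 ng/ml, CHIR99021 at 3 µM, which blocks GSK-3, and PD0325901 at 1 µM, which blocks MEK1/2, and gave 2 libraries per genotype. Endoderm cultures of both genotypes were grown flat, received 100 ng/ml Activin A with 3 µM CHIR99021 after 24 h and again at 72 h, and were collected at 120 h, with 3 libraries per genotype. Gastruloids, which are aggregates of mES cells that pattern themselves in part like an early embryo, came as Activin A gastruloids of both genotypes and as Chiron gastruloids of wild type alone, sampled at both 96 h and 120 h (2 libraries in each group). The labels give mixed cells as the cell type of every differentiated culture, no dose for the gastruloids, and no number of clones, so genotype and cell line cannot be told apart.

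Cells meet foreign nucleic acid through sensors such as RIG-I and MDA5, which signal through adaptor proteins and IRF factors to make type I interferon. Secreted interferon binds its receptor on the same and neighbouring cells, JAK kinases activate STAT proteins, STAT2 among them, and these join IRF9 in a complex that binds a DNA element called the ISRE (interferon-stimulated response element) before the stimulated genes. Those genes include the sensors and factors themselves, which closes a loop, and effectors that cut RNA, block translation, modify proteins with ISG15 or hold budding virus at the membrane. Pluripotent stem cells are known to make little interferon and to respond to it weakly, and differentiation restores both.

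Library totals ran from 9.11 to 28.8 M counts, and the 120 h gastruloid libraries were shallower, at 9.11 to 11.9 M, than the 96 h ones, at 15 to 28.8 M, so time and depth go together. The 39 Hox genes together were lower in every Hox-/- library than in the wild-type libraries of the same culture, for example 0.448 to 1.34 CPM against 30.4 to 35.7 CPM in mES cells and 102 to 104 CPM against 625 to 660 CPM in Activin A gastruloids at 96 h. The 8 endoderm markers summed to 408 to 433 CPM in wild-type and 179 to 187 CPM in Hox-/- endoderm cultures, against 21.8 to 24.7 CPM in wild-type mES cells. Wild-type endoderm cultures also held mesoderm markers at 316 to 346 CPM and pluripotency markers at 829 to 972 CPM. In wild-type mES cells those 2 sums were 5.91 to 6.64 CPM and 7354.7 to 7390.3 CPM. Of 12 immune-cell markers, the leukocyte gene Ptprc was at 0.0487 CPM or below in all 22 libraries, and the whole list summed to 6.50 to 17.1 CPM outside the mES cells. In mES cells it summed to 211 to 246 CPM, of which Laptm5 made up 91.4% in wild type and 89.4% in Hox-/-. In these bulk samples, fewer cells of a type and less RNA per cell cannot be told apart.

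**Figure D1:**
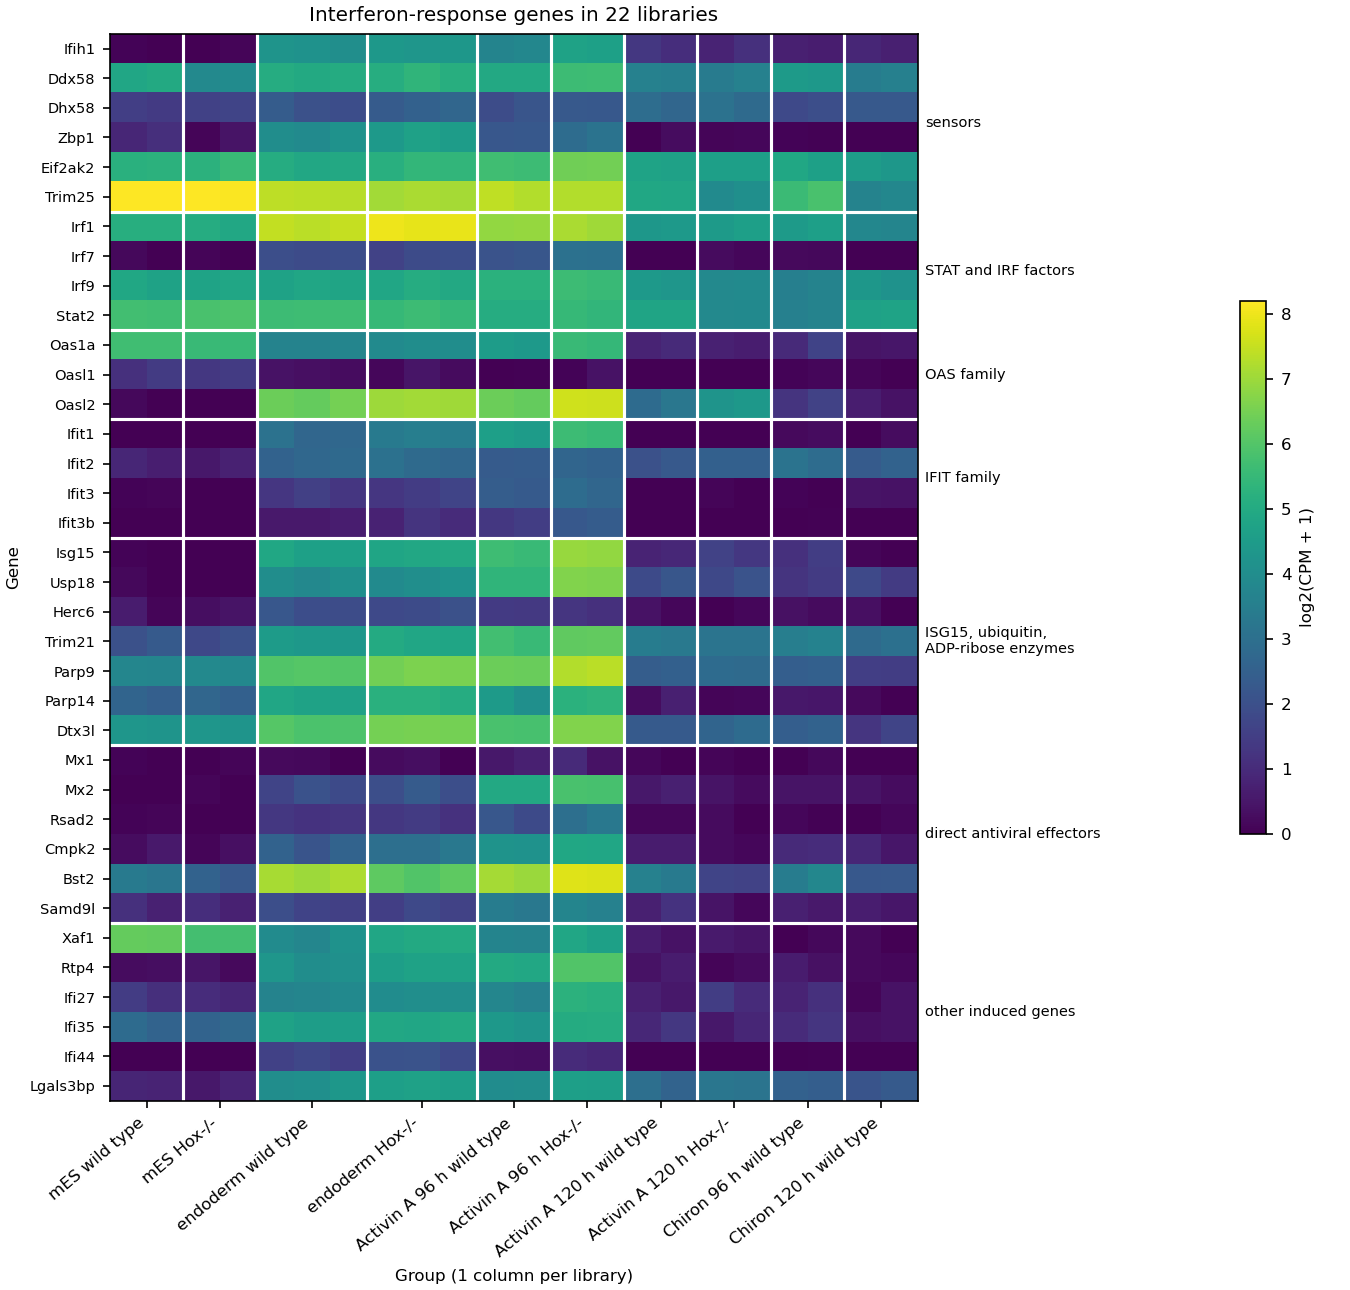
Level of each of the 36 genes (rows, grouped by role) in each of the 22 libraries (columns, grouped by culture and genotype), as log2(CPM + 1) on a colour scale from 0 (dark) upwards. Most rows are dark in mES cells and bright in endoderm cultures and in Activin A gastruloids at 96 h. They are dark again at 120 h and in Chiron gastruloids. In mES cells of each genotype 10 rows had a mean over 10 CPM, Trim25, Xaf1, Oas1a and Stat2 among them.

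By the coordinates of the deposited tables (mm10, counted from 1), Isg15 (ENSMUSG00000035692) lies at chr4:156199455-156200796 on the minus strand, Bst2 (ENSMUSG00000046718) at chr8:71534255-71537456 on the minus strand and Oasl2 (ENSMUSG00000029561) at chr5:114896936-114912234 on the plus strand, and 35 of the 36 members are annotated as protein-coding.

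The members together were lowest in Chiron gastruloids at 120 h and highest in Hox-/- Activin A gastruloids at 96 h. Their summed level was 661 to 662 CPM in wild-type against 616 CPM in Hox-/- mES cells, but reads of the ubiquitin ligase Trim25 made up 44.2% and 46.7% of these sums. In endoderm cultures the sum was 1032 to 1095 CPM in wild type against 1229.7 to 1270.4 CPM in Hox-/-. In Activin A gastruloids at 96 h it was 1129.8 to 1189 CPM in wild type against 1938 to 1966 CPM in Hox-/-, and at 120 h it was 193 to 195 CPM and 167 to 173 CPM. Chiron gastruloids held 195.5 to 210.2 CPM at 96 h and 133 CPM at 120 h. Libraries of the 2 genotypes did not overlap in this sum in any culture. Hox-/- had the lower sum in mES cells and at 120 h and the higher sum in endoderm and at 96 h. These sums are scaled by library totals alone. On that scale the median log2 change of all genes at 120 h was -0.132, against -0.02 with the TMM scaling used for the tests below. With TMM scaling the median of the tested members at 120 h was -0.01. By mean CPM, 24 of the 36 members were highest in Hox-/- Activin A gastruloids at 96 h, 4 in Hox-/- endoderm, 3 in wild-type mES cells, 2 in Hox-/- mES cells, and 1 each in wild-type endoderm, in Hox-/- Activin A gastruloids at 120 h and in Chiron gastruloids at 96 h.

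Endoderm cultures differed from mES cells in nearly every member. A gene is called here when edgeR's quasi-likelihood test gives it a Benjamini-Hochberg adjusted p under 0.05 over all genes tested. In wild type, 27 of 35 tested members were called higher in endoderm and 6 lower, where 41.6% of all genes tested were called higher and 38.3% lower, and the members' median log2 change was 3.00 against 0.07 for all genes. In Hox-/- cells 28 were called higher and 5 lower, beside 42.7% and 37.9% of all genes, with a median of 3.43. Set at their lower bounds, the members that had no count in mES cells bring these medians to 2.76 and 2.89. The mES and endoderm libraries stand in separate tables, so culture and whatever else differed between those runs cannot be told apart.

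Oasl2, a member of the OAS family of RNA-activated enzymes, held 2 counts (0.133 CPM) in 1 wild-type mES library and none in the other 3 mES libraries. In endoderm cultures it stood at 82.2, 76.2 and 88.3 CPM in wild type against 127, 132 and 130.02 CPM in Hox-/-. Every endoderm library was thus far above every mES library, and against the floor of 3 counts in a library the Hox-/- rise was at least 515-fold. Isg15, the ubiquitin-like protein that is joined to other proteins during the response, had 1 count among the 4 mES libraries and stood at 28.96, 24.3 and 24.1 CPM in wild-type against 27.2, 29.6 and 30.0 CPM in Hox-/- endoderm, at least 115-fold above the floor in Hox-/-. Usp18, which removes ISG15 and blocks the interferon receptor, had 2 counts in 1 mES library and stood at 15.2, 13.4 and 16.0 CPM in wild-type against 14.3, 15.6 and 17.3 CPM in Hox-/- endoderm.

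The same contrast held for Ifih1 (MDA5, the sensor of long double-stranded RNA), Rtp4 (a receptor chaperone that hinders viral replication), Ifit1 (a binder of foreign capped RNA), Mx2 (a dynamin-like restriction factor) and Ifi44. Ifit1 and Ifi44 had no count in any mES library. In wild-type endoderm Ifit1 stood at 7.46, 5.61 and 5.76 CPM, at least 26.9-fold above the floor, and Ifi44 at 2.03, 2.37 and 1.90 CPM, at least 9-fold above it. Ifih1 rose from 1 count among the wild-type mES libraries to 18.2, 17.2 and 15.6 CPM, and Rtp4 from 0.199 and 0.233 CPM to 18.9, 15.4 and 16.4 CPM. Mx2 had no count in wild-type mES cells and stood at 2.19, 3.17 and 2.55 CPM in wild-type endoderm, at least 11.3-fold above the floor. In Hox-/- cells Ifit3 and Rsad2 also went from no count to at least 7.15-fold and at least 5.89-fold above the floor. Mx2 is annotated as a polymorphic pseudogene, and reads shared with Mx1 cannot be told apart here.

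A smaller set ran the other way and was highest in the stem cells. Xaf1, a binder of the apoptosis inhibitor XIAP, stood at 77.0 and 74.7 CPM in wild-type mES cells and at 14.5, 12.7 and 17.2 CPM in wild-type endoderm (log2 change -2.48 ± 0.094, SE). Oas1a, an enzyme of the OAS family, whose active members make the 2-5A signal that switches on RNase L, fell from 51.3 and 51.0 CPM to 11.8, 11.7 and 12.2 CPM (-2.22 ± 0.10). Its paralogue Oasl1, which restrains Irf7 translation, fell from 1.20 and 1.71 CPM to 0.324, 0.264 and 0.219 CPM (-2.51 ± 0.53). Trim25, which ubiquitinates RIG-I, fell from 289.8 and 295 CPM to 168, 162 and 161 CPM (-0.95 ± 0.062). For these 4 genes the mES libraries all lay above the endoderm libraries of the same genotype.

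Exact ISRE motifs lie just before the start sites of 5 members that rank high in the 96 h genotype difference described further on, and these stretches are shown because the ISRE is the element that the complex of STAT2 and IRF9 reads. The sequences are RefSeq promoter windows of GRCm38.p6, from 250 bases before to 50 after the annotated start, trimmed to the part with the motif, read on the gene's strand from 5′ to 3′, with every exact match to GAAANNGAAA on either strand in capitals (its other strand reads TTTCNNTTTC). Adjacent matches share GAAA blocks, so that a run of capitals can hold several.
Isg15, chr4:156200825-156200946, minus strand: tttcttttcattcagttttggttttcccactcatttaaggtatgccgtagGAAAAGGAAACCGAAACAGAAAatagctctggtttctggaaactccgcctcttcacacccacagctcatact
Rsad2, chr12:26456513-26456622, minus strand: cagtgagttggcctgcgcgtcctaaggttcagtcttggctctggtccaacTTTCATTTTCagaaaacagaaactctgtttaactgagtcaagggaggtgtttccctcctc
Ifit3b, chr19:34607719-34607862, plus strand: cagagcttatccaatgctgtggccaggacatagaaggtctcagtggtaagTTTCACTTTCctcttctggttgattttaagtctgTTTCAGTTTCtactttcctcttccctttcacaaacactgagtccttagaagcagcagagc
Oas1a, chr5:120907526-120907595, minus strand: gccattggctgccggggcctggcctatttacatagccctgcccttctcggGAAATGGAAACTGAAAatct
Ifit1, chr19:34640735-34640863, plus strand: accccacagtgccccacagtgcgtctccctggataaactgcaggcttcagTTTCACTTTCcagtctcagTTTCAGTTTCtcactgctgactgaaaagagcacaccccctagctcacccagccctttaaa

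The Isg15 stretch holds 3 overlapping matches that start 78, 72 and 66 bases before the start site, Oas1a holds 2 at 20 and 14 bases before it, Ifit1 2 at 104 and 85 bases, Ifit3b 2 at 188 and 154 bases, and Rsad2 1 at 120 bases. Of the 36 members, 27 had a window in the promoter table, and 12 of these (44.4%) held the motif, against 3.99% of 27025 genes with a window and 3.44% of all 32851 windows of the same length. Bst2 had 2 matches, at 130 and 124 bases before its start, and Stat2 had 1 at 222 bases. In Ifih1, Ddx58, Eif2ak2 and Trim21 the match lay within the first 50 bases after the start. The shorter motif GAS, TTCNNNGAA, was in 6 of the 27 windows (22.2%), Irf1 and Bst2 among them, against 9.55% of genes. A match describes these letters only and says nothing on whether a factor was bound.

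In mES cells the members were called between the genotypes about as often as all genes, of which 23.2% were called in either direction. Of 20 members with enough reads to test, 4 were called lower in Hox-/- and 0 higher, where 10.8% and 12.4% of all genes tested were called lower and higher, and the median log2 change was -0.08 against 0.00 for all genes. At an unadjusted p under 0.05, edgeR gave 2 members higher and 5 lower. DESeq2 called 0 higher and 3 lower, and limma on log2(FPKM + 1) called 0 higher and 2 lower. Over all genes, in either direction, DESeq2 called 8.06% and limma 3.27%. The RNA sensor Ddx58 (RIG-I) stood at 28.1 and 30.8 CPM in wild type against 13.5 and 14.5 CPM in Hox-/- (-1.07 ± 0.11). Zbp1, a sensor of Z-form nucleic acid, stood at 0.863 and 1.17 CPM in wild type against 0.0747 and 0.336 CPM in Hox-/- (-2.29 ± 0.74), a change that lost its call without wild-type replicate 2 (-2.08) or without Hox-/- replicate 1 (-1.56). Xaf1 stood at 77.0 and 74.7 CPM against 53.0 and 52.7 CPM (-0.53 ± 0.069), and Bst2, the tethering protein tetherin, at 9.10 and 8.32 CPM against 5.01 and 3.87 CPM (-0.97 ± 0.18). In all 4 genes the 2 genotypes' libraries did not overlap, which the rule for naming Ddx58 and Zbp1 required.

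**Figure D2:**
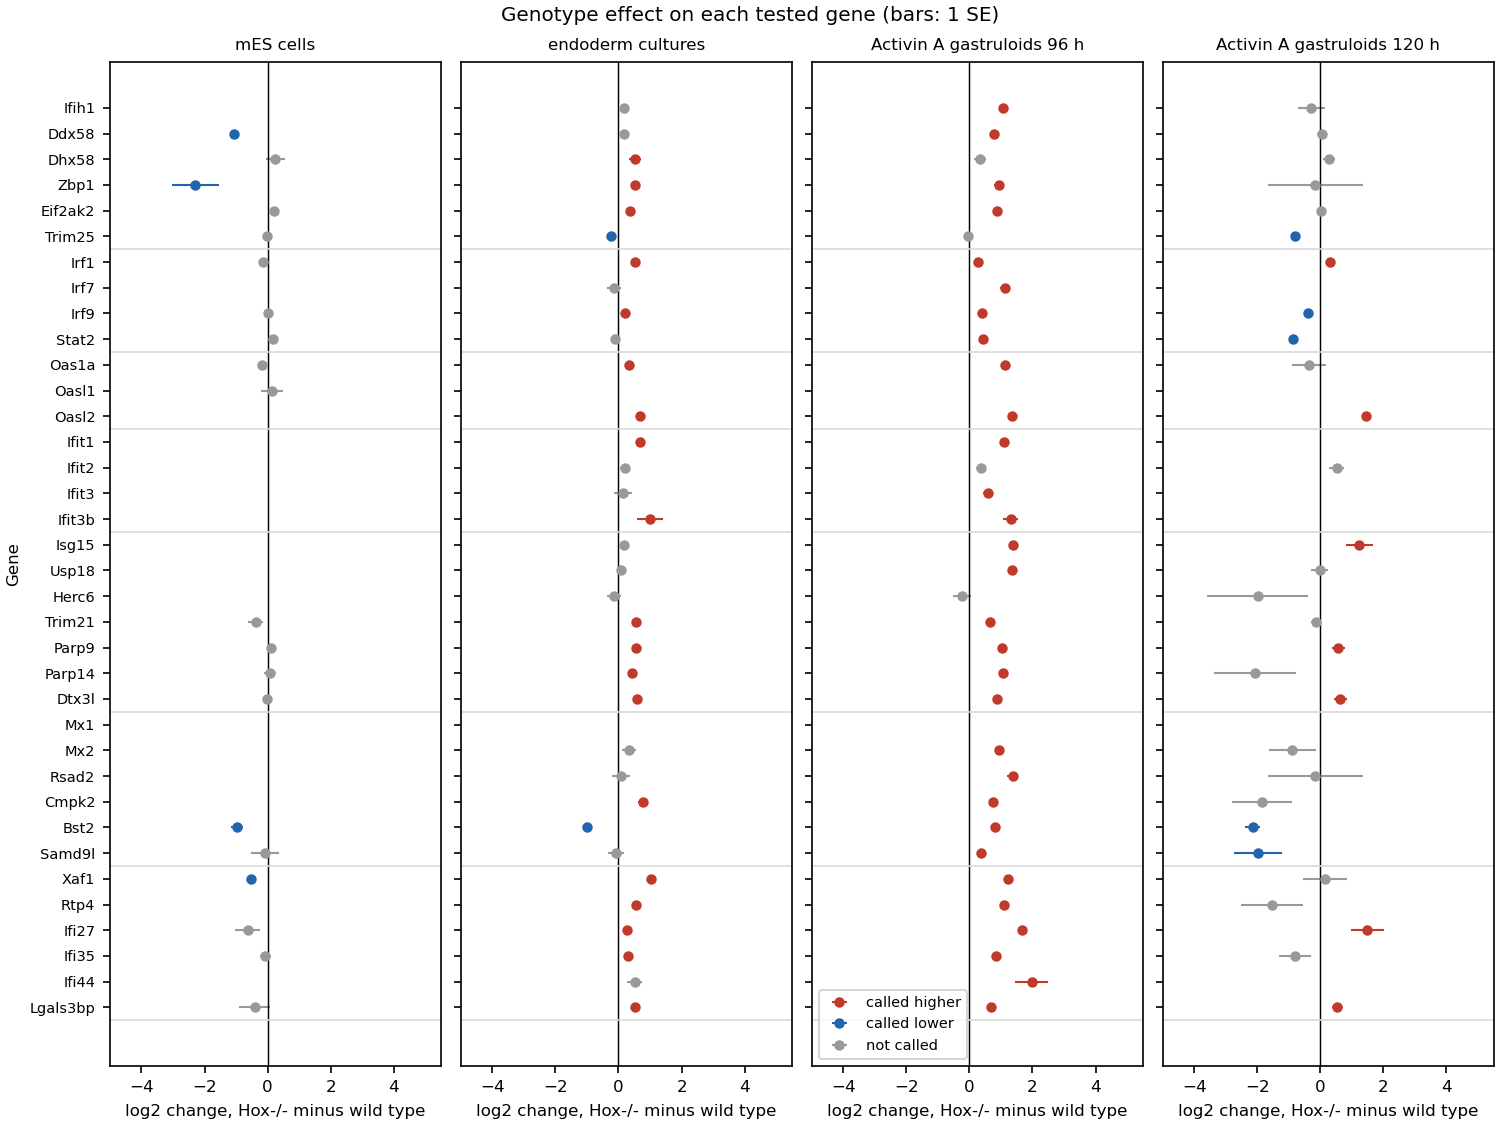
Log2 change of each tested member between Hox-/- and wild type (x axis; bars are 1 SE) in the 4 cultures that hold both genotypes; red marks a call higher in Hox-/-, blue a call lower and grey no call, and members with no count in either or both of the groups are not drawn. Points lie mostly right of 0 at 96 h, to a lesser extent right of 0 in endoderm, and on both sides of 0 in mES cells and at 120 h.

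In endoderm cultures the genotype differences were many and small. Hox-/- was called higher for 19 of 34 tested members and lower for 2, beside 23.1% of all genes in each direction, and the median log2 change was 0.34 against 0.00. Irf1, a factor that maintains basal expression of many stimulated genes and responds strongly to interferon gamma, was at 173, 163 and 178 CPM in wild type against 253, 239.5 and 243 CPM in Hox-/- (0.53 ± 0.061). Oasl2, with the values above, rose by 0.67 ± 0.064 on the log2 scale, and Xaf1 went from 14.5, 12.7 and 17.2 CPM to 27.9, 30.9 and 31.4 CPM (1.03 ± 0.10). Ifit3b, a close copy of Ifit3 whose reads may be shared with it, went from 0.487, 0.462 and 0.584 CPM to 0.739, 1.35 and 1.01 CPM (1.01 ± 0.41). The ADP-ribose enzyme pair Parp9 and Dtx3l rose by 0.54 ± 0.067 and 0.58 ± 0.067, from 62.1, 64.5 and 63.1 CPM to 87.0, 94.7 and 93.4 CPM for Parp9. In each of these genes all 3 Hox-/- libraries lay above all 3 wild-type libraries, which the rule for naming Xaf1 and Ifit3b required.

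Bst2 was called lower in Hox-/- endoderm, at 139, 129 and 145 CPM in wild type against 70.5, 62.3 and 70.7 CPM in Hox-/- (-1.01 ± 0.064), with no overlap. Trim25 was also called lower (-0.24 ± 0.061). Isg15 (0.18 ± 0.088), Usp18 (0.09 ± 0.11), Ifih1 (0.19 ± 0.10), Stat2 (-0.11 ± 0.074) and Irf7 (-0.14 ± 0.23) were not called. Other markers moved with genotype in the same cultures: the endoderm markers summed to 408 to 433 CPM in wild type against 179 to 187 CPM in Hox-/-, and the visceral and liver endoderm markers to 432 to 458 CPM against 92.7 to 98.9 CPM. The neural markers summed to 177 to 183 CPM against 274 to 304 CPM, but Nes alone made up 96.4% and 85.2% of the mean sums. Of 6 neural markers 3 were tested, and 2 of these were called higher in Hox-/- and 0 lower. The 8 fibroblast markers summed to 181 to 252 CPM and 424 to 447 CPM, a rise of the collagen Col1a1, while Thy1 was called lower, the other 3 tested were not called, and the list's median log2 change was -0.17. The pluripotency markers summed to 829 to 972 CPM in wild type against 244 to 263 CPM. The part of these cells in the members' differences was not tested. Fitted in one model with the mES libraries, the Hox-/- minus wild-type difference was higher in endoderm than in mES cells for 8 of 35 members and lower for 2, beside 11.6% and 12.5% of all genes. Zbp1 (2.86 ± 0.71), Xaf1 (1.58 ± 0.13) and Ddx58 (1.27 ± 0.14) had the largest such differences among the called members.

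At 96 h in Activin A gastruloids almost the whole module was higher in Hox-/-. Of 34 tested members 30 were called higher and 0 lower, where 22.2% and 16.7% of all genes were called higher and lower. edgeR gave 31 higher and 0 lower at an unadjusted p under 0.05. DESeq2 called 27 higher and 0 lower, and limma on log2(FPKM + 1) called 25 higher and 0 lower. Over all genes, in either direction, DESeq2 called 21.7% and limma 21.2%, beside 38.9% in the main fit. The median log2 change was 0.91 against 0.03 for all genes, and 15 members were called with at least a 2-fold rise, beside 1.72% of all genes. The 4 members without a call were Dhx58, Trim25, Ifit2 and Herc6. The wild-type Activin A libraries used here are also the reference for the time and treatment comparisons below, so those comparisons are not independent of this one.

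**Figure D3:**
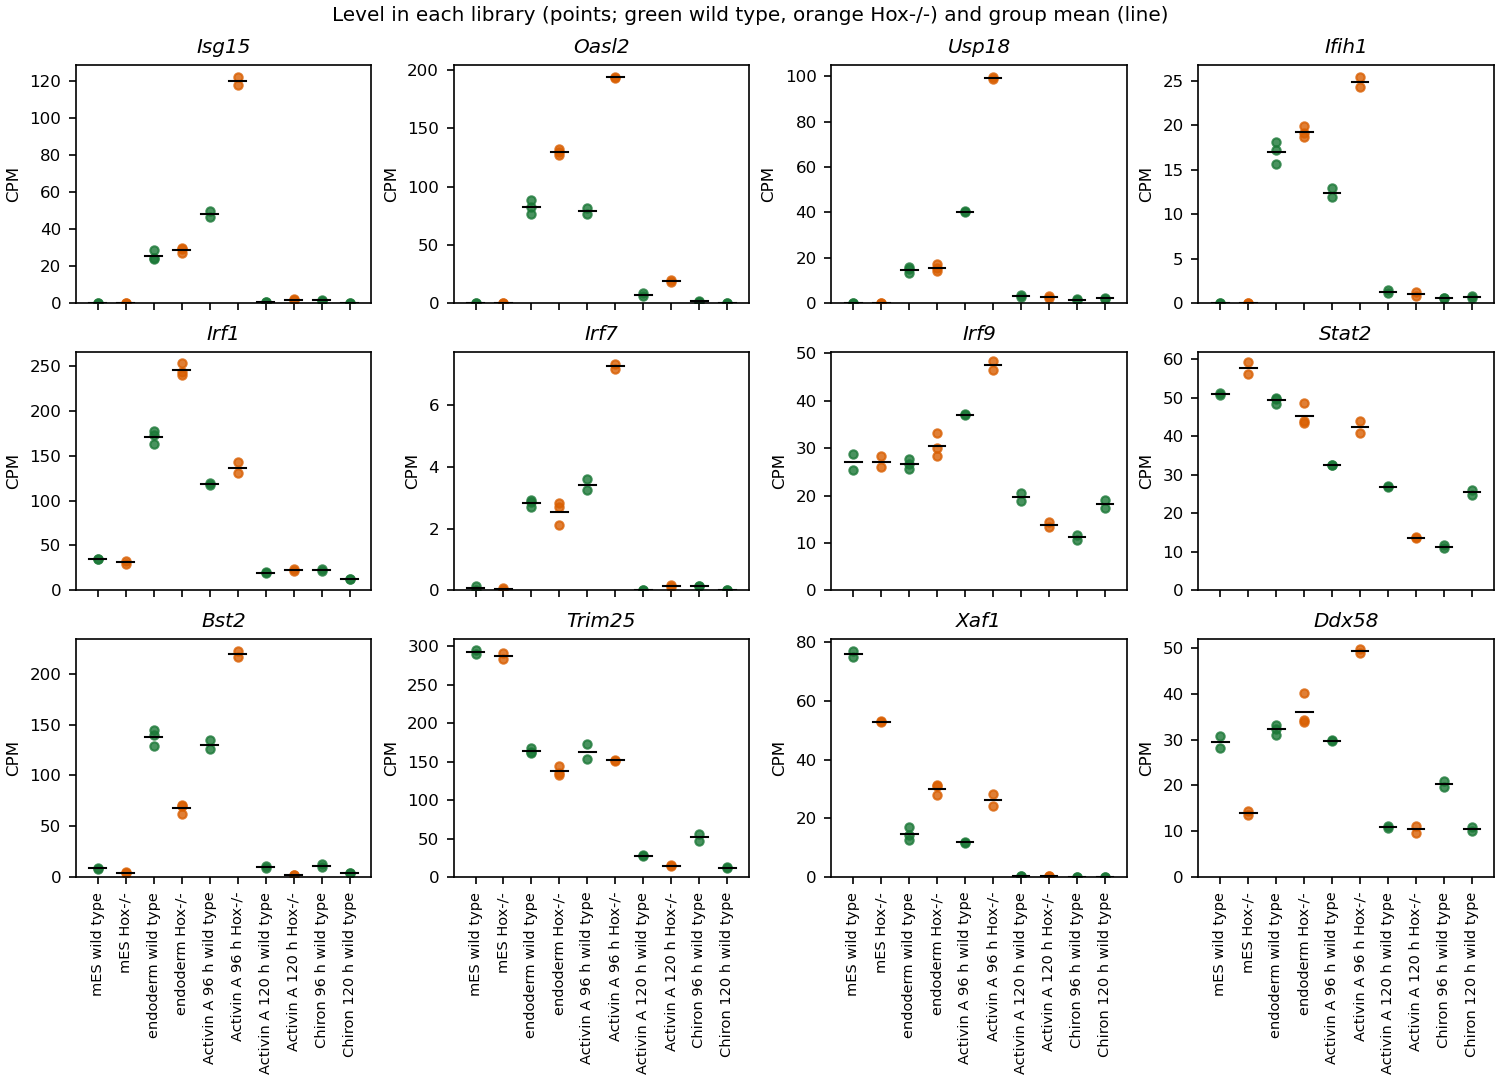
CPM of 12 members in every library (points; green wild type, orange Hox-/-) with group means (lines), on linear axes that start at 0. Isg15, Oasl2, Usp18, Ifih1 and Irf7 peak in Hox-/- Activin A gastruloids at 96 h, Irf1 peaks in endoderm, and Trim25 and Xaf1 peak in mES cells.

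Isg15 stood at 49.8 and 46.7 CPM in wild type against 123 and 118 CPM in Hox-/- at 96 h (log2 change 1.37 ± 0.051). Oasl2 stood at 81.6 and 76.8 CPM against 194 and 193 CPM (1.34 ± 0.045), and Usp18 at 40.8 and 39.99 CPM against 99.8 and 98.6 CPM (1.35 ± 0.054). The replicates of a group lay close together in all 3 genes, and the groups were far apart. Rsad2 (viperin, which makes a chain-terminating nucleotide) stood at 3.64 and 2.60 CPM against 6.97 and 8.69 CPM (1.37 ± 0.18), and Ifi27, a mitochondrial protein, at 12.5 and 11.3 CPM against 37.5 and 34.8 CPM (1.66 ± 0.086). Ifi44 had the largest change, 1.97 ± 0.51, but at levels of 0.267 and 0.233 CPM against 1.03 and 0.869 CPM. Ifit3b stood at 1.51 and 1.78 CPM against 3.79 and 4.21 CPM (1.31 ± 0.23) and Xaf1 at 12.1 and 11.6 CPM against 28.2 and 24.3 CPM (1.21 ± 0.091). These 8 genes had the largest called changes among those picked because every Hox-/- library lay above both wild-type libraries.

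The branches took unequal shares of this difference. The OAS family summed to 97.5 to 104 CPM in wild type against 237 to 241 CPM in Hox-/-, a ratio of means of 2.37. The other induced genes, such as Rtp4 and Ifi27, went from 85.4 to 90.1 CPM to 178 to 184 CPM, a ratio of 2.07, and the ISG15, ubiquitin and ADP-ribose enzymes rose from 285 to 303 CPM to 584 to 593 CPM, a ratio of 2.00. The IFIT family had a ratio of 1.89 and the direct antiviral effectors one of 1.70. The sensors summed to 251 to 271 CPM and 322 to 326 CPM, a ratio of 1.24, and the STAT and IRF factors to 190 to 193 CPM and 225 to 242 CPM, a ratio of 1.22. Several of these ratios largely follow 1 gene. Oasl2 held 78.7% of the OAS sum in wild type and 81.1% in Hox-/-, Ifit1 69.4% and 75.5% of the IFIT sum, Bst2 68.3% and 67.7% of the effector sum, Trim25 62.4% and 46.9% of the sensor sum and Irf1 61.9% and 58.4% of the factor sum. Trim25 (-0.05 ± 0.044) was not called and Irf1 (0.26 ± 0.045) was called with a small rise, and the members tested in their branches had medians of 0.83 and 0.43.

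Other lists moved with genotype at 96 h as well. The endoderm markers summed to 607 to 683 CPM in wild type against 161 to 166 CPM in Hox-/-. The pluripotency markers summed to 1074.8 to 1102.4 CPM and 939.5 to 956.9 CPM, of which Pou5f1 made up 75.7% and 80.9%. Of the 8 pluripotency markers 6 were called lower in Hox-/- and 1 higher, beside 16.7% and 22.2% of all genes. That list's median log2 change was -0.89. The mesoderm markers summed to 1779.1 to 1859.4 CPM and 2174.3 to 2214.3 CPM, mostly T, with 1 marker called higher and 4 lower. The fibroblast markers summed to 10.0 to 10.2 CPM and 17.2 to 19.2 CPM, mostly Col1a2. Of 6 fibroblast markers tested, 2 were called higher in Hox-/-, both by at least 2-fold, and 0 lower. The other 4 lay below 0 without a call, and the list's median log2 change was -0.47. Their part in the rise of the members was not tested. The immune-cell list summed to 7.67 to 9.46 CPM in wild type against 6.50 to 7.22 CPM in Hox-/-, and Ptprc had no count in either Hox-/- library. Cd68 made up 71.4% of the mean sum in wild type and 72.7% in Hox-/-. In each group 8 of the 12 markers had 3 counts or fewer in every library. The part of immune cells was not tested either. Among fibroblast markers Dcn was at 0.349 CPM or below, and Col1a1 at 0.578 CPM or below, in all 4 libraries.

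Between 96 h and 120 h the module fell in both genotypes of Activin A gastruloids. In wild type 32 of 34 tested members were called lower at 120 h and 1 higher, beside 37.8% and 37.2% of all genes, with a median log2 change of -3.95, or -3.58 with members at 0 set to their bound. In Hox-/- 32 were called lower and 1 higher, beside 37.6% and 34.9%, with a median of -5.42, or -4.67 with bounds. The same member, Dhx58 (LGP2, a regulator of the other RNA sensors), rose in each: 2.75 and 3.53 CPM became 6.70 and 5.60 CPM in wild type, and 3.88 and 3.74 CPM became 7.59 and 6.17 CPM in Hox-/-. Ifit2 was called in neither genotype.

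Ifit1 stood at 23.7 and 21.8 CPM in wild type against 48.2 and 45.1 CPM in Hox-/- at 96 h and had no count in any of the 4 libraries at 120 h, falls of at least 69.1-fold and at least 166-fold. Ifit3b also had no count at 120 h, at least 5.00-fold lower in wild type and at least 14.3-fold lower in Hox-/-. Isg15 came down to 0.757 and 0.878 CPM in wild type against 2.07 and 1.496 CPM in Hox-/-, and Oasl2 to 6.27 and 8.56 CPM and to 18.0 and 19.7 CPM. Rtp4 went from 30.6 and 29.3 CPM to 0.324 and 0.549 CPM in wild type (-6.15 ± 0.51) and from 61.9 and 61.7 CPM to 0.0862 and 0.187 CPM in Hox-/- (-8.78 ± 0.83). Parp14, another ADP-ribosyltransferase, went from 36.5 and 39.1 CPM to 0.0862 and 0.0935 CPM in Hox-/- (-8.61 ± 1.1). Irf7 and Ifit3 in wild type were at least 10.4-fold and at least 12.7-fold lower, and Ifi44 in Hox-/- at least 3.38-fold lower. The log2 change of Mx2 was -5.85 ± 0.46 in wild type and -7.68 ± 0.59 in Hox-/-, and that of Cmpk2 in Hox-/- was -7.65 ± 0.84. Every library at 120 h lay below every library of its genotype at 96 h in these genes, as the rule that named genes by size of change required. With a floor of 0.259 to 0.329 CPM in the 120 h Activin A libraries, levels this low are near the limit of what these totals can show.

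At 120 h the genotype difference was mixed. Of 34 tested members 7 were called higher in Hox-/- and 5 lower, where 24.9% and 25.5% of all genes were called, and the median log2 change was -0.01 against -0.02. Of the tested members, Ifit1, Ifit3b and Ifi44 had no count in either group. Oasl2 stayed higher, at the values above (1.46 ± 0.15), as did Isg15 (1.24 ± 0.44), Parp9 (0.57 ± 0.20), Dtx3l (0.63 ± 0.21), Lgals3bp (0.54 ± 0.18), Irf1 (0.30 ± 0.11) and Ifi27, at 0.649 and 0.439 CPM in wild type against 1.81 and 1.03 CPM in Hox-/- (1.49 ± 0.53). Lower in Hox-/- were Bst2, Samd9l, Stat2, Trim25 and Irf9. Bst2 stood at 11.2 and 9.33 CPM in wild type against 2.24 and 2.06 CPM in Hox-/- (-2.14 ± 0.24), and Samd9l, a translation-blocking antiviral factor, at 0.649 and 1.32 CPM against 0.345 and 0.0935 CPM (-1.98 ± 0.75). Trim25 stood at 28.5 and 27.9 CPM against 14.4 and 15.9 CPM (-0.79 ± 0.11). The 120 h fibroblast-marker sums were 49.8 to 51.7 CPM in wild type against 16.7 to 19.1 CPM in Hox-/-, and the endoderm sums 518 to 529 CPM and 64.7 to 67.8 CPM, and their part in these differences was not tested.

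Tested directly, the Hox-/- minus wild-type difference was lower at 120 h than at 96 h for 16 of 34 members and higher for 0, beside 20.2% and 18.7% of all genes. Over all genes, in either direction, the main fit called 38.9%, DESeq2 26.8% and limma on log2(FPKM + 1) 31.1%. For the members, edgeR gave 17 lower and 0 higher at an unadjusted p under 0.05. DESeq2 called 15 members lower and 0 higher, and limma called 23 lower and 0 higher. The count was 10 without wild-type 120 h replicate 2. Parp14 (-3.15 ± 1.3), Bst2 (-2.95 ± 0.24), Rtp4 (-2.63 ± 0.98), Cmpk2 (-2.60 ± 0.95), Samd9l (-2.36 ± 0.76), Mx2 (-1.84 ± 0.75), Ifi35 (-1.66 ± 0.50) and Oas1a (-1.48 ± 0.53) were the 8 that fell furthest. Also among the 16 were Usp18 (-1.37 ± 0.27), Ifih1 (-1.35 ± 0.44), Eif2ak2 (-0.86 ± 0.11) and Ddx58 (-0.74 ± 0.16). Isg15 (-0.14 ± 0.44) and Oasl2 (0.11 ± 0.15) were not called, and both were higher in Hox-/- at the 2 times.

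Treatment separated wild-type gastruloids at 96 h. Activin A gastruloids were called higher than Chiron gastruloids for 31 of 33 tested members and lower for 1, beside 31.3% and 30.2% of all genes, with a median log2 change of 4.02 against 0.00, and 29 members were called with at least a 2-fold rise, beside 13% of all genes. Ifit1 stood at 23.7 and 21.8 CPM with Activin A and 0.146 and 0.208 CPM with Chiron (6.85 ± 0.49), Mx2 at 30.1 and 30.3 CPM against 0.341 and 0.347 CPM (6.36 ± 0.36), and Rtp4 at 30.6 and 29.3 CPM against 0.535 and 0.278 CPM (6.19 ± 0.34). The libraries of the 2 treatments were far apart in each. Ifit3, Xaf1, Zbp1, Ifit3b and Rsad2 complete the 8 largest called rises, between 5.45 ± 0.88 (Rsad2) and 7.2 ± 1.5 (Ifit3), the latter from 1 count in the Chiron libraries. The reverse case was Ifit2, at 4.18 and 4.19 CPM with Activin A and 7.69 and 6.45 CPM with Chiron (-0.81 ± 0.16). The marker sums differed between the treatments too, with endoderm markers at 607 to 683 CPM against 83.3 to 106 CPM, and their part was not tested.

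At 120 h the same comparison gave 11 of 33 members higher with Activin A and 1 lower, beside 20.3% and 21.6% of all genes, with a median of 0.75. Without Chiron replicate 1 at 120 h the count of calls in both directions fell from 12 to 6. Oasl2 differed most among the higher ones, at 6.27 and 8.56 CPM against 0.587 and 0.318 CPM (3.91 ± 0.49). Isg15 (3.87 ± 1.5), Ifi35 (2.01 ± 0.67), Bst2 (1.37 ± 0.21), Parp9 (1.25 ± 0.29), Trim25 (1.14 ± 0.13) and Dtx3l (1.12 ± 0.29) also differed by at least 2-fold. The 1 member called lower was Ifit3, with no count under Activin A and 7 counts under Chiron. In Chiron gastruloids the members were low at both times: 17 of 33 were called lower at 120 h than at 96 h and 3 higher, beside 33.2% and 28.5% of all genes, with a median of -0.96, or -0.82 with bounds. Isg15 fell from 1.22 and 1.80 CPM to 1 count in 1 library (-4.95 ± 1.5), Ifi27, Ifi35, Oas1a, Parp14, Oasl2 and Bst2 had called log2 changes between -1.71 ± 0.19 and -2.49 ± 0.76, and Irf7 is described below. Trim25 fell from 47.5 and 56.6 CPM to 11.7 and 13.0 CPM (-2.19 ± 0.12), whereas Stat2 rose from 10.999 and 11.7 CPM to 24.8 and 26.1 CPM (1.05 ± 0.11) and Irf9 from 10.7 and 11.7 CPM to 19.1 and 17.3 CPM (0.60 ± 0.11). The other member called higher, Ifit3, had 7 counts at 120 h and 1 at 96 h.

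The 4 STAT and IRF factors had 4 different profiles over the 10 groups. Stat2, the STAT that carries the complex's activation domain, was highest in mES cells, at 51.3 and 50.7 CPM in wild type against 56.3 and 59.4 CPM in Hox-/-. It stood at 48.4, 49.8 and 49.97 CPM in wild-type against 44.1, 48.7 and 43.3 CPM in Hox-/- endoderm, and those ranges overlap. In Activin A gastruloids it was 32.6 CPM in both wild-type libraries and 44.0 and 40.9 CPM in Hox-/- at 96 h (0.44 ± 0.064), and 26.7 and 27.0 CPM against 13.5 and 13.7 CPM at 120 h (-0.87 ± 0.11), so that the direction of the genotype difference turned between the times.

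Irf9, the DNA-binding subunit of the complex, lay between 25.3 and 33.2 CPM in all mES and endoderm libraries. It stood at 37.0 and 37.2 CPM in wild type against 48.3 and 46.5 CPM in Hox-/- at 96 h (0.41 ± 0.062) and at 20.5 and 18.8 CPM against 13.4 and 14.3 CPM at 120 h (-0.39 ± 0.12). Irf9 shares 123 exon bases with Rnf31 on the same strand, where reads cannot be assigned to 1 of them. On the deposited FPKM values, which are scaled by transcript length, the 120 h change was 0.03, so its direction at 120 h depends on the table used, as does that in endoderm (0.20 ± 0.087 on counts, -0.16 on log2(FPKM + 1)).

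Irf1 had its highest level in endoderm, with the values given above. It was 34.5 CPM in both wild-type and 33.2 and 29.2 CPM in Hox-/- mES cells, 117 and 119.9 CPM in wild type against 143 and 131 CPM in Hox-/- at 96 h (0.26 ± 0.045), and 19.2 and 20.2 CPM against 21.3 and 23.8 CPM at 120 h. Chiron gastruloids held 21.4 and 24.1 CPM at 96 h and 12.9 and 12.2 CPM at 120 h. Irf7, the factor that amplifies interferon alpha production, had 0 to 2 counts in each mES library and stood at 2.92, 2.70 and 2.85 CPM in wild-type against 2.10, 2.71 and 2.83 CPM in Hox-/- endoderm. At 96 h it stood at 3.24 and 3.60 CPM in wild type against 7.34 and 7.16 CPM in Hox-/- (1.13 ± 0.17), and at 120 h it had no count in wild type and 3 counts in Hox-/-. Chiron gastruloids held 0.146 and 0.139 CPM at 96 h and no count at 120 h. The deposited FPKM table lists Irf7 at 0 in all 22 libraries, although it had up to 157 counts, so its values rest on the counts alone.

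The sensors differed in how widely they were expressed. Ifih1 stood at 12.0 and 12.9 CPM in wild type against 25.5 and 24.3 CPM in Hox-/- at 96 h (1.05 ± 0.090), at 1.51 and 1.10 CPM and 0.776 and 1.22 CPM at 120 h, and at no more than 0.838 CPM in Chiron gastruloids. Zbp1 peaked in endoderm, at 15.4, 14.4 and 17.1 CPM in wild type against 20.4, 24.7 and 22.4 CPM in Hox-/-. The other sensors were expressed in every library. Ddx58 ranged from 9.65 CPM, in a Hox-/- library at 120 h, to 49.8 CPM in a Hox-/- library at 96 h, where wild type held 29.8 and 29.7 CPM. Eif2ak2 (PKR, the kinase that stops translation when it meets double-stranded RNA) stood at 50.5 and 48.1 CPM in wild type against 86.1 and 87.8 CPM in Hox-/- at 96 h (0.87 ± 0.053) and between 19.4 and 46.8 CPM in every other group.

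Of the effectors, Bst2 was the member called in all 4 genotype comparisons, and its direction differed between them: lower in Hox-/- in mES cells, endoderm and 120 h gastruloids, and higher at 96 h, at 135 and 126 CPM in wild type against 223 and 216 CPM (0.81 ± 0.042). By FPKM, the scale on which genes can be compared, Bst2 was the most abundant member in wild-type endoderm (188 ± 11.6 FPKM, SD, n = 3) and in Activin A gastruloids at 96 h of both genotypes (166 ± 9.85 in wild type and 269.5 ± 6.22 in Hox-/-, SD, n = 2). Isg15 came next at 96 h, with 78.2 ± 3.95 and 190.1 ± 6.26 FPKM. In mES cells the leading member was Trim25, at 49.7 ± 0.805 FPKM in wild type and 48.6 ± 0.931 FPKM in Hox-/-, and in Hox-/- endoderm it was Irf1, at 113 ± 2.16 FPKM (SD, n = 3).

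Mx2 was high at 96 h and low in endoderm. It stood at 30.1 and 30.3 CPM in wild type against 57.3 and 54.9 CPM in Hox-/- at 96 h (0.95 ± 0.064), against 2.19 to 4.12 CPM over the 6 endoderm libraries. Cmpk2, a nucleotide kinase next to Rsad2, had 17.4 and 17.2 CPM in wild type against 28.6 and 27.8 CPM in Hox-/- at 96 h (0.76 ± 0.082), against 3.43 to 8.82 CPM in endoderm. Samd9l followed, at 10.0 and 8.84 CPM and 12.2 and 11.2 CPM at 96 h (0.38 ± 0.12). Mx1 was close to absent, with at most 0.982 CPM in any library, and was too low to test in any genotype comparison, as Oasl1 was outside mES cells.

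The enzymes of protein modification rose with the effectors. Parp9 stood at 81.5 and 78.8 CPM in wild type against 152 and 162 CPM in Hox-/- at 96 h (1.02 ± 0.046) and its partner Dtx3l, a ubiquitin ligase, at 56.5 and 56.0 CPM against 99.0 and 99.6 CPM (0.87 ± 0.051). The 2 genes share 458 exon bases on opposite strands. Trim21, an antibody receptor and ubiquitin ligase of the cytosol, stood at 51.3 and 46.0 CPM against 72.2 and 74.8 CPM (0.65 ± 0.054). Herc6, the mouse ligase that attaches ISG15, was the exception, at 1.64 and 1.59 CPM in wild type against 1.40 and 1.20 CPM in Hox-/- (-0.24 ± 0.29, no call). Ifit2 likewise stood apart from Ifit1, at 3.13 to 7.69 CPM in every gastruloid library.

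The remaining members followed the wider pattern. Ifit3 stood at 4.399 and 3.99 CPM in wild type against 6.50 and 5.48 CPM in Hox-/- at 96 h (0.59 ± 0.17). Ifi35, a cytosolic adaptor, stood at 19.6 and 17.9 CPM against 32.0 and 33.2 CPM (0.85 ± 0.078). Lgals3bp, a secreted glycoprotein, stood at 15.0 and 15.2 CPM against 23.7 and 23.5 CPM (0.70 ± 0.087). In all 3 the Hox-/- libraries lay above the wild-type ones. Lgals3bp also remained at 3.35 to 8.36 CPM in all 120 h gastruloids, when Ifi35 was at 1.54 CPM or below.

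The rest of the pathway was read from 4 lists of genes outside the members. Of 93 further interferon-stimulated genes, 66 were tested at 96 h in Activin A gastruloids, and 54 were called higher in Hox-/- and 4 lower, beside 22.2% and 16.7% of all genes, with a median log2 change of 0.75. The guanylate-binding and immunity-related GTPases, which attack pathogen vacuoles, were among them: Iigp1 stood at 16.8 and 16.3 CPM in wild type against 68.0 and 71.2 CPM in Hox-/- (2.13 ± 0.071, edgeR adjusted p = 2.87e-31), and at 120 h it was lower in Hox-/-, at 7.57 and 6.81 CPM against 0.172 and 0.561 CPM (-4.18 ± 0.53, edgeR adjusted p = 5.38e-15). Parp12 stood at 113 and 104 CPM against 229 and 224 CPM at 96 h (1.12 ± 0.043, edgeR adjusted p = 6.73e-28), and the membrane restriction factor Ifitm3 at 81.2 and 77.8 CPM against 216 and 178 CPM (1.37 ± 0.052, edgeR adjusted p = 9.61e-28). In endoderm 35 of 68 such genes were called higher and 11 lower (median 0.33), beside 23.1% of all genes in each direction, Gbp3 (1.08 ± 0.084, edgeR adjusted p = 3.51e-08) and Irgm1 (1.09 ± 0.076, edgeR adjusted p = 4.51e-08) among the higher ones. Iigp1 rose there too (1.51 ± 0.14, edgeR adjusted p = 6.07e-07), and the surface antigen gene Ly6a fell (-1.17 ± 0.13, edgeR adjusted p = 3.12e-06). In mES cells 9 of 43 were higher and 4 lower, beside 12.4% and 10.8% of all genes, so that the share called lower was near that of all genes. Slfn8 was higher in Hox-/- there (1.23 ± 0.18, edgeR adjusted p = 1.41e-06) and Irgm1 lower (-1.24 ± 0.45, edgeR adjusted p = 0.0313), while the signalling kinase gene Ikbke was lower as well (-1.15 ± 0.21, edgeR adjusted p = 6.43e-05). At 120 h 15 of 66 went each way, near the 24.9% and 25.5% of all genes. Ifitm1, a membrane protein gene, stood at 207 and 186 CPM in wild type against 418 and 396 CPM in Hox-/- (1.16 ± 0.051, edgeR adjusted p = 2.83e-25).

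**Figure D4:**
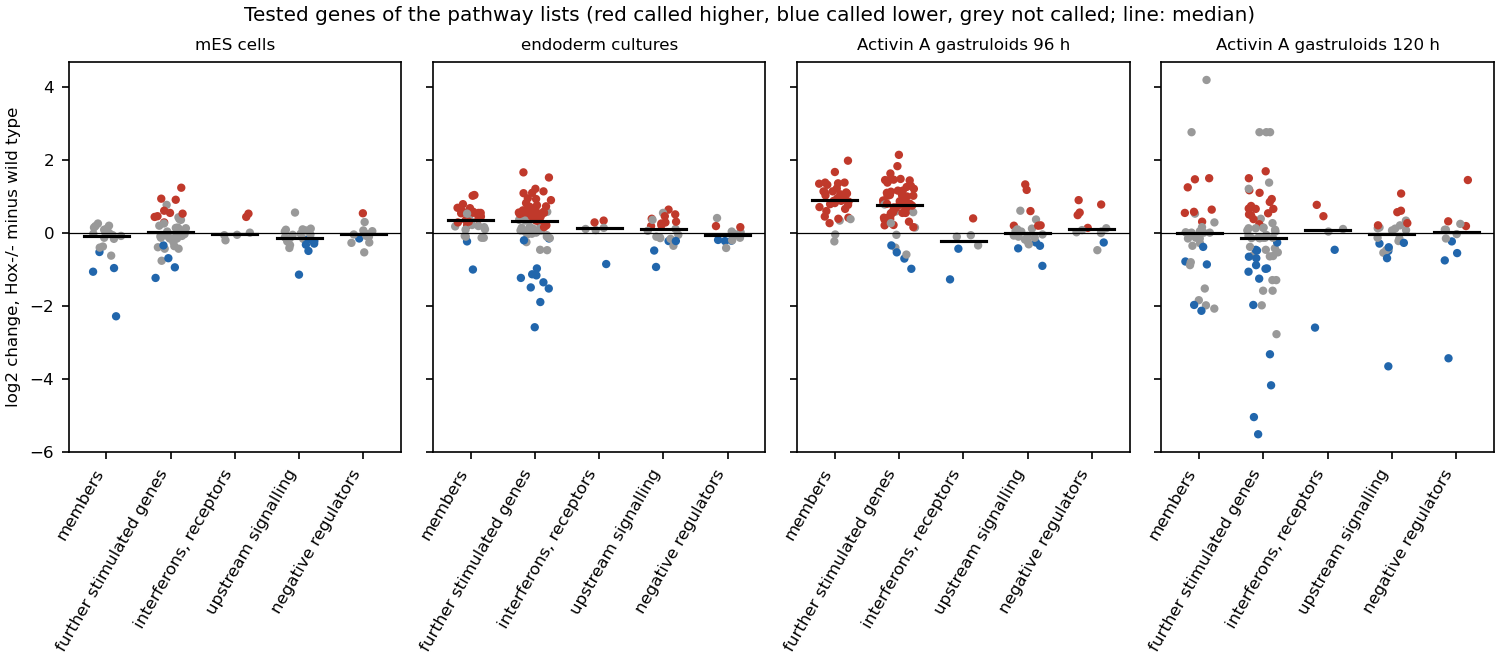
Log2 change between Hox-/- and wild type (y axis) of each tested gene of the members and of 4 lists of other pathway genes (x axis) in the 4 cultures with both genotypes; red marks a call higher, blue a call lower, grey no call, and the black line is the list's median; changes are fitted values, also where a group had no count. At 96 h the medians of the members (0.91) and of the further stimulated genes (0.75) lie above 0, and those of the receptors (-0.23) and of upstream signalling (-0.01) do not.

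The signalling genes upstream of the module were called at 96 h about as often as genes in general. In mES cells 0 of 21 tested were called higher in Hox-/- and 6 lower, beside 12.4% and 10.8% of all genes. In endoderm 9 of 23 were called higher and 4 lower, beside 23.1% of all genes in each direction. At 120 h 5 of 24 were called higher and 6 lower, beside 24.9% and 25.5%. Of 24 tested genes of upstream signalling, 6 were called higher and 4 lower in Hox-/- at 96 h, where 22.2% and 16.7% of all genes were, with a median of -0.01. The DNA-sensing adaptor Sting1 stood at 1.51 and 0.853 CPM against 2.43 and 2.67 CPM (1.17 ± 0.29, edgeR adjusted p = 0.000893). The kinase Jak1 changed little (0.19 ± 0.054, edgeR adjusted p = 0.00258), and Tyk2 (-0.09 ± 0.070), the adaptor Mavs (-0.19 ± 0.088) and the DNA sensor Cgas (0.60 ± 0.25) were not called. The receptor genes Ifnar1, at 88.6 and 88.5 CPM against 80.4 and 83.1 CPM, and Ifnar2, at 10.3 and 11.5 CPM against 9.68 and 9.90 CPM, were not called either. Of 6 tested genes of interferons and receptors 1 was called higher and 2 lower at 96 h, and of 12 tested negative regulators 5 and 1, counts too small to set against those shares. At 120 h the lambda receptor gene Ifnlr1 (-2.60 ± 0.36, edgeR adjusted p = 7.08e-10) and Rnf125, a ligase that restrains RIG-I (-3.44 ± 0.63, edgeR adjusted p = 3.76e-08), were lower in Hox-/-.

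Transcripts of the 10 interferon genes looked for were nearly absent. Of these, 9 had no count in any of the 22 libraries, Ifnb1 and Ifng among them. The only interferon alpha genes on the list were Ifna1, Ifna2, Ifna4 and Ifna5, and other interferon genes were not looked at. Ifna4 alone had reads, in 6 libraries: 0.311 and 0.155 CPM in wild-type against 0.842 and 0.468 CPM in Hox-/- Activin A gastruloids at 96 h, and 0.114 and 0.189 CPM in 2 Hox-/- endoderm libraries, with 18 counts at most. A count of 0 allows up to 3 counts in a library, which is 0.104 to 0.329 CPM over the 22 libraries, and covers counting error only. The interferon alpha genes are near-identical, so reads of 1 may be placed in another or be lost, depending on the counting, which is not given in the sources used here.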

How the data were processed

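Per the labels' protocols, the libraries came from poly(A)-selected RNA and a strand-keeping kit. The deposited counts are whole-number read counts per Ensembl gene, and cutadapt 1.16, STAR and the build mm10 are named in the submitters' processing notes. The deposited FPKM values (fragments per transcript length and library size) carry gene symbols, and Cufflinks 2.2.1 is named in the submitters' processing notes. Which tool counted, and whether it used strand, is not given in the sources used here. The members were found by symbol in the FPKM tables and joined to the counts by gene ID. The members and the lists of other genes were chosen with earlier results of these data known.

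CPM is a count divided by the library's total. Changes were tested with edgeR 4.0.16 (quasi-likelihood, TMM scaling, filterByExpr, R 4.3.3) over all genes, with Benjamini-Hochberg adjustment at 0.05. Libraries of 1 deposited table shared a fit, except that mES and endoderm libraries were fitted together for culture. DESeq2 1.42.0 on the counts and limma 3.58.1 on log2(FPKM + 1) or log2(FPKM + 0.1) were alternatives. On simulated data for the 96 h genotype comparison, 94% of 100 planted 2-fold and 100% of 100 planted 4-fold changes were recovered among 16060 genes, and 2.51% of calls were false. Changes were planted only in genes with a mean CPM of at least 1, so recovery of scarcer genes was not measured. Far fewer genes were changed there than were called in the data, so these rates need not carry over. For genotype by time 72% of 2-fold changes were recovered among 16040 genes, and false calls reached 5.97% for endoderm against mES cells in wild type among 15560 genes and 5.47% for genotype in endoderm among 14751 genes. Standard errors (SE) of log2 changes come from the fitted counts and dispersion, with the quasi-dispersion held at 1 or above, and are wide where a group has few counts. A floor of 3 counts per library stands for a count of 0. Members were named when they are STAT or IRF factors, lead their branch in CPM, are called in all 4 genotype comparisons, or are among the 8 largest called changes of at least 2-fold per direction without overlap between libraries, and the other members were described after their values were seen. For members named by size of change, the lack of overlap was thus fixed by the rule. The share of all genes without overlap was not computed. Of the other pathway genes, up to 4 per genotype comparison were named by the smallest p among called 2-fold changes without overlap, beside fixed signalling genes. Replicates of a group differed by more than sampling noise (chi-square per degree of freedom 1.37 to 10.3). The labels do not say that replicates came from separate cultures, so p-values measure only the spread between these samples, which may be technical. Results for an item withheld from the text are not reported here.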

Additional observations from a re-analysis of the deposited data

Results flagged for a closer look

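The genotype difference itself differed between the times in Activin A gastruloids for 16 members, all downwards, beside 20.2% of all genes. In 4 of them it was called in opposite directions, higher in Hox-/- at 96 h and lower at 120 h. The share of all genes called in opposite directions was not computed, so this count has no background to be set against. The difference of the log2 changes (120 h minus 96 h) was -2.95 for Bst2, -2.36 for Samd9l, -1.31 for Stat2 and -0.80 for Irf9. For Irf9 the change at 120 h was 0.03 on log2(FPKM + 1), so its turn in direction is not found on that table. Samd9l rested on 1 to 12 counts per library at 120 h.

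Between endoderm cultures and mES cells the genotype difference differed for 10 members, 8 upwards and 2 downwards, beside 11.6% and 12.5% of all genes. Zbp1 (2.86) and Xaf1 (1.58) were called lower in Hox-/- in mES cells and higher in endoderm. Here too the share of all genes called in opposite directions was not computed. The Zbp1 value rests on 1 and 4 counts in the Hox-/- mES libraries.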

How the results depend on the processing

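The refits cover 124 log2 changes of 29 named members, all picked because they were called in the main fit. Genotype-by-time and genotype-by-culture changes were included only for STAT and IRF factors and Bst2. Refits that did not test the gene are not counted. With 10 counts required in every library, only 53 changes that kept the call and 1 that lost it remained. Of 1708 refitted values, 1602 kept their direction and call, 100 lost the call and 6 reversed. The 6 are Irf9, at -0.16, -0.18 and -0.16 in endoderm and 0.03, 0.04 and 0.03 at 120 h under limma on log2(FPKM + 1), log2(FPKM + 0.1) and log2(FPKM + 1) without a filter; the cause was not tested. Counts of called members in the mES genotype comparison were 2, 2 and 0 under the same 3 settings against 4, and those of other stimulated genes 6, 6 and 0, and 6 with DESeq2, against 13. Calls over all genes fell there too, from 23.2% to 3.27%, 3.14% and 0.0991% under those 3 settings and 8.06% with DESeq2. Without the filter on FPKM, 13 members were called in endoderm against 21, 7 at 120 h against 12, and 10 for Chiron time against 20. The share of all genes called fell from 46.2% to 17.3% in endoderm and from 50.4% to 23.7% at 120 h. For Chiron time it fell from 61.7% to 28.6%. With log2(FPKM + 0.1), 18 members and 31 other genes were called at 96 h against 30 and 58, while the share of all genes called fell from 38.9% to 19.4%. Requiring 10 counts in every library left fewer genes to test, only 15 members at 96 h: 12 members and 37 other genes were then called at 96 h, 14 for time in wild type and 14 in Hox-/- (33 each), 8 for genotype by time (16), 13 and 14 for endoderm against mES cells in wild type and Hox-/- (33 each), 12 for Chiron time (20) and 13 for treatment at 96 h (32).

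Leaving out 1 library at a time gave 3 to 6 members in mES cells, 17 to 21 in endoderm, 28 to 30 at 96 h, 8 to 9 at 120 h, 10 to 16 for genotype by time (10 without Activin A wild-type 120 h replicate 2), 7 to 10 for genotype by culture, 6 to 11 for treatment at 120 h (6 without Chiron replicate 1 at 120 h) and 32 for treatment at 96 h. It gave 31 to 33 and 32 to 34 for endoderm against mES cells, 32 to 34 and 33 to 34 for time, and 17 to 18 for Chiron time. Other stimulated genes ran from 8 to 13 in mES cells (8 without wild-type replicate 2), 43 to 49 in endoderm, 54 to 58 at 96 h and 21 to 25 at 120 h. Where this leaves 1 library in a group, that library is assumed to vary like the others.

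Replicate numbers did not pair the samples (correlations of deviations -0.084 to 0.119). With the replicate number as a block, 5 members were called in mES cells, 21 in endoderm, 30 at 96 h, 12 at 120 h and 16 for genotype by time. FPKM fits across the mES and endoderm tables were not run, since those tables were normalized separately. In a library of 9.25 M counts, 3 counts are 0.324 CPM, so small differences there were not detectable at this depth.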
